A study of Mus musculus with 7 samples.

Results

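The genes described here encode the enzymes that trim, branch, extend and cap glycans in the Golgi apparatus. Members were taken by a rule on gene symbols and comprise mannosidases (Man1a, Man1b, Man1c and Man2a), N-acetylglucosamine (GlcNAc) branching enzymes (Mgat), fucosyltransferases (Fut), sialyltransferases (St3gal, St6gal and St8sia) and enzymes that extend or branch chains (B3gnt, B3galt and Gcnt) or start O-glycans (Galnt). The rule found 70 of the 23347 genes in the count table. One of these, St8sia3os, is an antisense RNA and not an enzyme.

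N-glycans are attached in the endoplasmic reticulum, trimmed by mannosidases and rebuilt in the Golgi, where most Mgat enzymes start an antenna with a GlcNAc (Mgat3 adds the bisecting GlcNAc, which is not extended). B4GALT1 adds galactose to the GlcNAc of an antenna, and the resulting N-acetyllactosamine (LacNAc) is the acceptor on which sialyltransferases place the sialic acid that caps most glycoproteins secreted by hepatocytes. O-glycans start with a GalNAc placed by Galnt enzymes and are branched by Gcnt enzymes.

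To examine these genes when B4galt1 is deleted in hepatocytes, liver RNA-sequencing data were analysed from 7 mice with 1 library each, 4 of them B4galt1 flox/flox and 3 labelled B4galt1 hep-/-. Both groups were male mice of a C57BL/6 background, 6 to 8 weeks old when feeding began, and both received the CDAHFD, a high-fat diet without choline in which amino acids replace protein, for 15 weeks. B4galt1 flox/flox mice carry a B4galt1 allele flanked by loxP sites and served as littermate controls (the sample labels call them WT). In B4galt1 hep-/- mice (B4galt1-HKO in the labels), Alb-Cre, a Cre recombinase driven by the albumin promoter, acts in hepatocytes, and other liver cells keep the gene. No mice on chow were analysed here, so every comparison is one between the labelled groups on the CDAHFD.

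The deleted gene did not separate the groups. B4galt1 was at 48.7, 53.0, 49.2 and 51.7 CPM (counts relative to the library total, normalized between libraries by the TMM method) in B4galt1 flox/flox replicates 1 to 4. It was at 28.4, 23.9 and 53.7 CPM in replicates 1 to 3 labelled B4galt1 hep-/-, so that replicate 3 lay above every control. The log2 fold change was -0.52 ± 0.26 (SE; edgeR adjusted p = 0.181), and without replicate 3 it was -0.96 and passed the test. These are counts over the whole gene, and loss of the part between the loxP sites was not tested. Livers are therefore named by their label. Libraries held 37838654 to 39668509 counts in B4galt1 flox/flox mice and 30608271 to 34586588 in mice labelled B4galt1 hep-/-. Mitochondrially encoded genes took 3.88% to 8% of the counts in the controls and 14.4% to 22.6% in the other group. None of the 8 hepatocyte markers was called changed, but 3 had an unadjusted edgeR p under 0.05. Of these, Serpina1e and Cps1 were lower and Apoa1 was higher. Of 8 macrophage markers 5 were called lower, beside 7.83% of all tested genes. The macrophage markers summed to 1057 to 2371 CPM in the controls and 456 to 537 CPM in livers labelled B4galt1 hep-/-, and all 8 were detected. Of the other lists, 1 of 6 endothelial markers was called lower, and 0 of 6 stellate cell, 6 cholangiocyte, 5 lymphocyte and 3 neutrophil markers were called. In bulk tissue, fewer cells of a type and less RNA per cell cannot be told apart.

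Of the 70 members, 59 had enough counts to be tested and 11 did not, the latter with at most 14 counts in any library. Calls required an absolute log2 fold change over 0.58 and an edgeR adjusted p under 0.05 (Benjamini-Hochberg, over 15179 genes). St6gal1, St3gal3 and Mgat5 were called lower in livers labelled B4galt1 hep-/-, and 0 members were called higher. Among all tested genes 15.8% were called, 7.83% lower and 8% higher, and no test was made of the members' share against these. At an unadjusted p under 0.05, 11 of the 59 members were lower and 3 were higher, beside 2437 lower and 2551 higher of the 15179 genes, or 23.7% of the tested members beside 32.9% of all tested genes. DESeq2 called 6 members lower and 2 higher, beside 10.7% lower and 11.8% higher (22.5% in all) of the genes to which it gave an adjusted p. The median log2 fold change was -0.07 over the tested members and 0.02 over all tested genes.

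**Figure D1:**
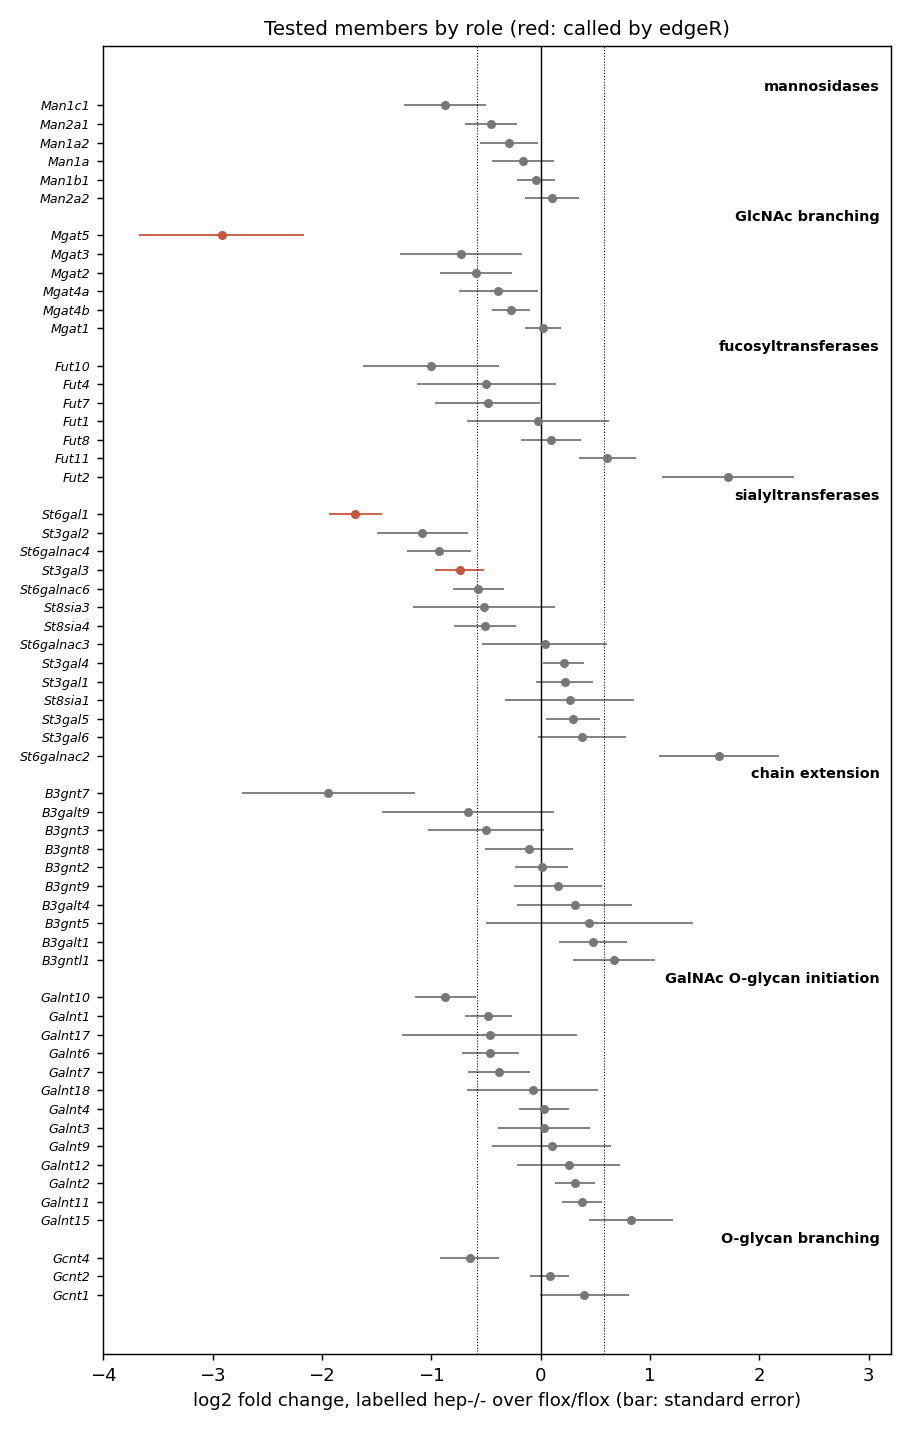
Log2 fold change of each of the 59 tested members (x axis, livers labelled B4galt1 hep-/- over B4galt1 flox/flox, bars are standard errors), grouped by role, with dotted lines at the fold change threshold of 0.58 in either direction. St6gal1, St3gal3 and Mgat5, in red, were called, and the members range from -2.92 (Mgat5) to 1.72 (Fut2).

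St6gal1 encodes the enzyme that attaches sialic acid to the LacNAc of N-glycan antennae in alpha2,6 linkage, and it is strongly expressed in liver. It uses more than 1 promoter, and RefSeq places 3 starts of the gene on chromosome 16 (GRCm38.p6). The 250 bases before each start of the 3 called members are shown because all 3 fell, with matches on either strand to the CCAAT box, the Sp1-type box GGGCGG, the TATA motif TATAAA and the C/EBP-type motif TTNCGNAA in capitals (the motifs were picked after the sequences had been read).
St6gal1 start A, chr16:23224490-23224739, plus strand: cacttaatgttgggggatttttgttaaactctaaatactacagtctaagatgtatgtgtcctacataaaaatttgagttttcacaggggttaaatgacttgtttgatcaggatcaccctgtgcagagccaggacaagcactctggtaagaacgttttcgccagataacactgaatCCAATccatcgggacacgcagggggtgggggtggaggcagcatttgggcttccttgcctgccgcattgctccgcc
St6gal1 start B, chr16:23225771-23226020, plus strand: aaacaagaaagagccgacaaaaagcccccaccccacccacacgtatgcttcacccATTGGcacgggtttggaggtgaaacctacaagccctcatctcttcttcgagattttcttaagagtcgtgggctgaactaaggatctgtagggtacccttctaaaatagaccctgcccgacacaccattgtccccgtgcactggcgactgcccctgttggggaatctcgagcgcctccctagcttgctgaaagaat
St6gal1 start C, chr16:23290220-23290469, plus strand: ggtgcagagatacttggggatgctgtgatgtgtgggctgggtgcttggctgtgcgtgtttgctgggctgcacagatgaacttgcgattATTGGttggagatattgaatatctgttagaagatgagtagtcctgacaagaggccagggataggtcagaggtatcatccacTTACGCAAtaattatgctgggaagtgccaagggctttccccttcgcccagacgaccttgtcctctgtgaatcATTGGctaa
St3gal3, chr4:118134947-118135196, minus strand: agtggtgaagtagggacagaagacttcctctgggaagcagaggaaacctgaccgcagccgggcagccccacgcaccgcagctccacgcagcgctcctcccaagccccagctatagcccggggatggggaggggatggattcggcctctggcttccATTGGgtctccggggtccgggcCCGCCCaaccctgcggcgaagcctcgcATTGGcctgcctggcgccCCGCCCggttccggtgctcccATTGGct
Mgat5, chr1:127204736-127204985, plus strand: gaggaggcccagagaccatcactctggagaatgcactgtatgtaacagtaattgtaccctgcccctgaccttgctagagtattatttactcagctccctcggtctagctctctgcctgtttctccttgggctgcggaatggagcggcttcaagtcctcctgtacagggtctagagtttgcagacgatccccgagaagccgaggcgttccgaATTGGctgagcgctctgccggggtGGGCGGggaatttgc

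The windows differed in composition. Those of St3gal3 and Mgat5 held 18 and 11 CpG dinucleotides at 68.4% and 56.0% GC, whereas the 3 windows of St6gal1 held 6, 10 and 5 CpG at 47.2%, 52.8% and 49.6% GC. Windows were found for 51 of the 70 members, 74 in all, with a median of 14 CpG and 60.8% GC, beside 6 CpG and 52.4% GC over 32851 windows of 27025 genes. That background was not limited to the genes tested here, and genes of like expression were not compared. The Sp1-type box GGGCGG stood in 51.4% of the members' windows and in 32.7% of all windows, and TATAAA in 1.4% and 12.4%. CCAAT was found in 36.5% and 33.8%, with at least 1 match in each of the 5 windows shown. TTNCGNAA, a pattern of the kind that C/EBP factors bind, stood in 4.1% of the members' windows and in 2.0% of all, and among those shown it occurred only before start C of St6gal1. The transcript counts do not distinguish between starts.

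St6gal1 was at 42.0, 83.5, 62.6 and 53.2 CPM in B4galt1 flox/flox replicates 1 to 4 and at 19.8, 16.2 and 19.8 CPM in replicates 1 to 3 labelled B4galt1 hep-/-. Every liver labelled B4galt1 hep-/- lay below every control. The mean fell to 30.9% of the control mean, a log2 fold change of -1.69 ± 0.24 (SE; edgeR adjusted p = 0.00327). The call held when any 1 of the 7 libraries was left out, with log2 fold changes from -1.83 to -1.50. An antisense gene, BC106179, overlaps exons of St6gal1 and held 1 to 7 counts per library. Macrophage markers were lower in the same livers (456 to 537 CPM in sum, beside 1057 to 2371 CPM in the controls), and lymphocyte markers summed to 58.4 to 101 CPM, beside 45.2 to 67 CPM. The part of these cells and of shared reads in the level of St6gal1 was not tested.

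St3gal3, which attaches sialic acid to the same galactose in alpha2,3 linkage, was at 57.8, 55.3, 39.4 and 58.6 CPM in the controls. It was at 31, 23.8 and 40.1 CPM in livers labelled B4galt1 hep-/-, so that replicate 3 of each group met between 39.4 and 40.1 CPM and the groups overlapped. The log2 fold change was -0.74 ± 0.22 (SE; edgeR adjusted p = 0.0452). The call was lost in 5 of the 7 fits with 1 library left out, and the log2 fold change over all 7 ran from -0.95 to -0.57. It held without B4galt1 flox/flox replicate 3 and without replicate 3 labelled B4galt1 hep-/-.

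Mgat5 encodes the enzyme that starts the beta1,6 antenna, the branch that is most readily extended with repeated LacNAc. It was at 3.33, 3.79, 12.3 and 0.96 CPM in the controls and at 0.39, 0.51 and 1.12 CPM in livers labelled B4galt1 hep-/-. Control replicate 4 lay below replicate 3 of the other group, and control replicate 3 lay more than 3 times above each of the other controls. The log2 fold change of -2.92 ± 0.76 (SE; edgeR adjusted p = 0.0261) was called, but it was lost when control replicate 2 or 3, or replicate 1 or 2 of the other group, was left out, and the estimate moved from -3.50 to -2.0, the latter without control replicate 3. That library also had the highest sums of macrophage markers (2371 CPM) and endothelial markers (291 CPM, beside 72.1 to 112 CPM in the other controls). Stellate cell markers were highest there too (985 CPM, beside 604 to 692 CPM in the other controls). The part of these cells in the level of Mgat5 was not tested. Control replicate 3 was the highest library for 21 of the 59 tested members (35.6%, beside 20.1% of all tested genes).

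**Figure D2:**
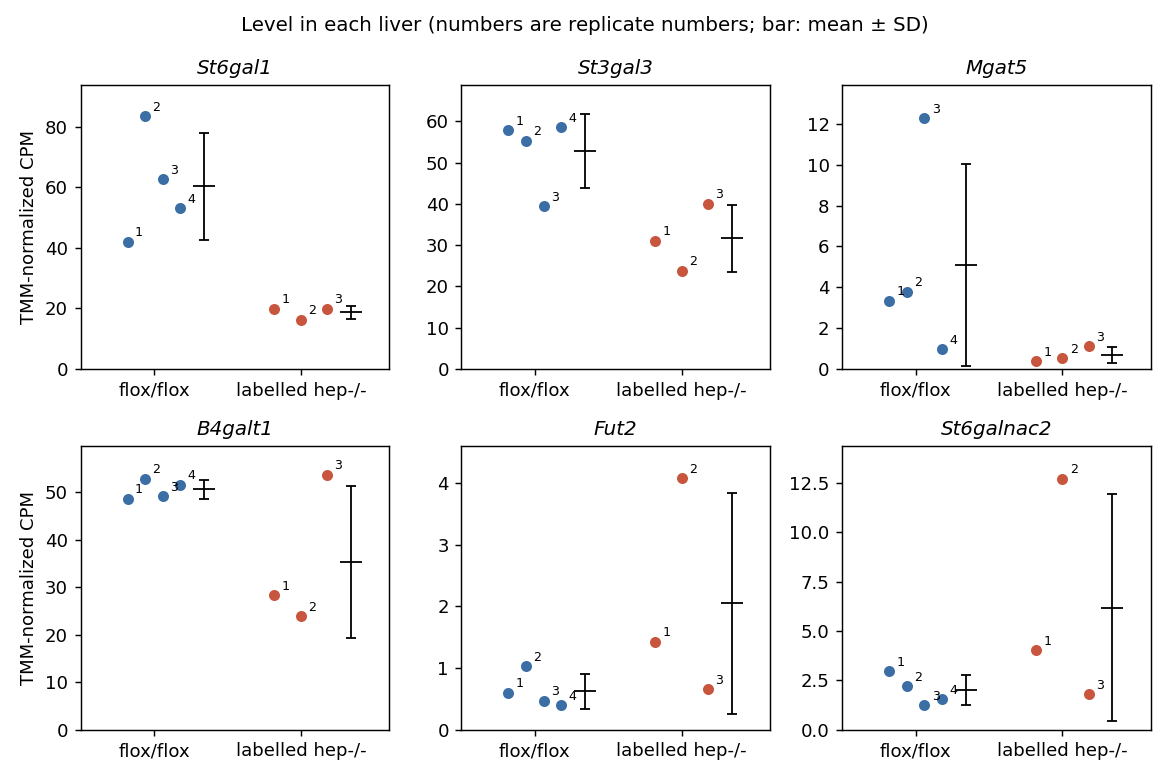
Level of 6 genes in each liver (y axis, TMM-normalized CPM from 0, points numbered by replicate, bars are the mean ± SD) in B4galt1 flox/flox mice (blue) and mice labelled B4galt1 hep-/- (red). St6gal1 separates the groups (42.0 CPM or more against 19.8 CPM or less), B4galt1 in replicate 3 labelled B4galt1 hep-/- sits at 53.7 CPM, and replicate 2 of that group sits at 4.07 CPM for Fut2 and 12.7 CPM for St6galnac2.

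Sialyltransferases, the largest tested role group, held 2 of the 3 calls. Of 17 members 14 were tested, and 2 called lower and 0 higher is close to the 15.8% of all tested genes called. At an unadjusted p under 0.05 there were 6 (42.9%, beside 32.9% of all tested genes), 5 of them lower. Their median log2 fold change was -0.24 (interquartile range -0.70 to 0.26). St6galnac4, St3gal2 and St6galnac2 are given because DESeq2 called them and edgeR did not, a choice made after their values were seen. St6galnac4, which sialylates the GalNAc of short O-glycans, was at 5.03 to 9.21 CPM in the controls and 3.06 to 4.62 CPM in livers labelled B4galt1 hep-/-. The groups did not overlap, and its log2 fold change was -0.93 ± 0.29 (SE; edgeR adjusted p = 0.0507, DESeq2 adjusted p = 0.0168). St3gal2, which sialylates O-glycans and gangliosides, stood at 2.54 to 8.97 CPM against 1.94 to 3.28 CPM, a log2 fold change of -1.08 ± 0.41 (SE; edgeR adjusted p = 0.0940).

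St6galnac2, another sialyltransferase of O-glycans, had the largest positive estimate among the sialyltransferases, 1.63 ± 0.55 on the log2 scale (SE; edgeR adjusted p = 0.0646). It was at 2.97, 2.21, 1.24 and 1.55 CPM in the controls and at 4.03, 12.7 and 1.81 CPM in livers labelled B4galt1 hep-/-. The groups overlapped, and replicate 2 of the latter group, at 12.7 CPM, was more than 3 times the next library. That replicate also had the highest sum of cholangiocyte markers (875 CPM, beside 254 to 659 CPM in the controls and 260 and 417 CPM in its own group), whose part in these levels was not tested.

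St3gal5, which makes the ganglioside GM3 from lactosylceramide, had the highest level per length of all members, with a mean of 108 FPKM (fragments per kilobase of gene length, scaled to the library total) over the 7 livers. Its share of the summed FPKM of all sialyltransferases was 62.5% ± 3.51 (SD, n = 4) in the controls and 72.9% ± 3.72 (SD, n = 3) in the other group. Between groups its level did not pass the test, with 237 to 299 CPM in the controls and 252, 266 and 470 CPM in the other livers (log2 fold change 0.30 ± 0.24, SE; edgeR adjusted p = 0.422). St3gal1, which caps the core 1 O-glycan, had a log2 fold change of 0.22 ± 0.26 (SE), and its highest level was likewise in replicate 3 labelled B4galt1 hep-/- (99.0 CPM, beside 45.6 to 67.2 CPM in the controls). Without that replicate the estimates were -0.06 for St3gal5 and -0.18 for St3gal1. St6galnac6, a ganglioside sialyltransferase, had a log2 fold change of -0.57 ± 0.23 (SE; edgeR adjusted p = 0.113).

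Within the sialyltransferases that act on LacNAc (St6gal1, St3gal3, St3gal4 and St3gal6), the share of St6gal1 in their summed FPKM was 25.1%, 41.3%, 39.4% and 29.4% in B4galt1 flox/flox replicates 1 to 4. It was 19.4%, 17.1% and 17.5% in replicates 1 to 3 labelled B4galt1 hep-/-, below every control. The share of St3gal4 was 12.2% ± 1.91 (SD, n = 4) and 24.3% ± 6.64 (SD, n = 3), with no overlap. Its own level did not pass the test (log2 fold change 0.21 ± 0.18, SE; edgeR adjusted p = 0.453). The gene 4930581F22Rik, which overlaps exons of St3gal4 on the opposite strand, held 292 to 800 counts per library, beside 1858 to 2877 for St3gal4. The part of shared reads was not tested. St3gal3 took 51.8% ± 7.76 (SD, n = 4) and 52.7% ± 8.99 (SD, n = 3) of the sum. St3gal6 took 2.22% ± 0.97 and 5.0% ± 2.75 (SD, n = 4 and 3). A share in this sum falls when another member's rises, so the 4 shares are not independent.

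**Figure D3:**
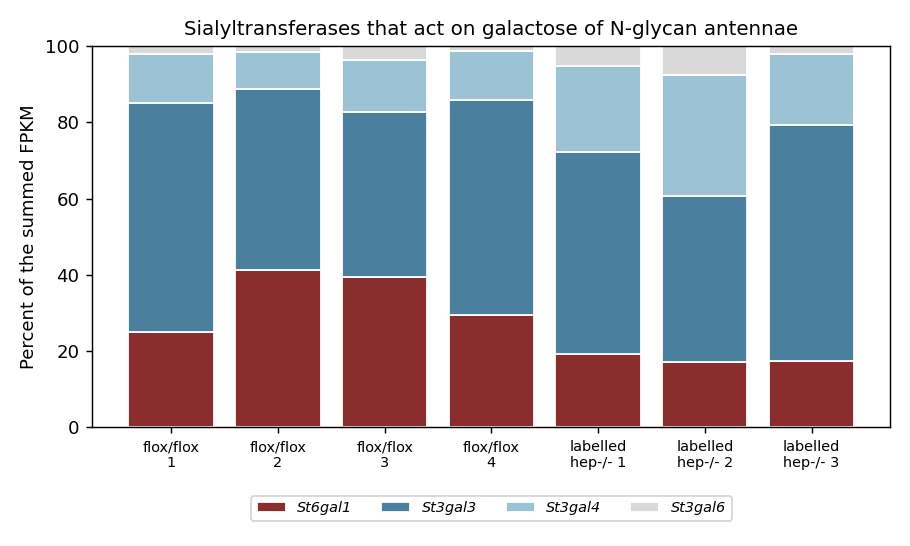
Share of each of 4 sialyltransferases in their summed FPKM (y axis, percent; 1 stacked bar per liver). St6gal1 (dark red) takes 25.1% to 41.3% in the 4 B4galt1 flox/flox livers and 17.1% to 19.4% in the 3 livers labelled B4galt1 hep-/-.

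The supply of sialic acid was examined beside its transfer. Other genes of glycan synthesis, chosen by function, numbered 42 on a hand-written list, of which 40 were in the table and all of these were tested. Of them 6 were called lower and 2 higher, beside the 7.83% and 8% of all genes. With 1 library left out the 8 calls became 1 to 9, with 1 left without control replicate 2. Gne, which encodes the enzyme that starts sialic acid synthesis, had a log2 fold change of -0.70 ± 0.18 (SE; edgeR adjusted p = 0.0275). Cmas, which activates sialic acid to its CMP donor, had -0.73 ± 0.18 (SE; edgeR adjusted p = 0.0202). In livers labelled B4galt1 hep-/- Gne stood at 59.1% to 63.5% and Cmas at 55.0% to 65.8% of the control mean CPM, below every control of the same gene. Nans, which makes the sialic acid phosphate (-0.22), and Slc35a1, the Golgi transporter of the donor (-0.21), were not called, with edgeR adjusted p-values of 0.508 and 0.441.

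**Figure D4:**
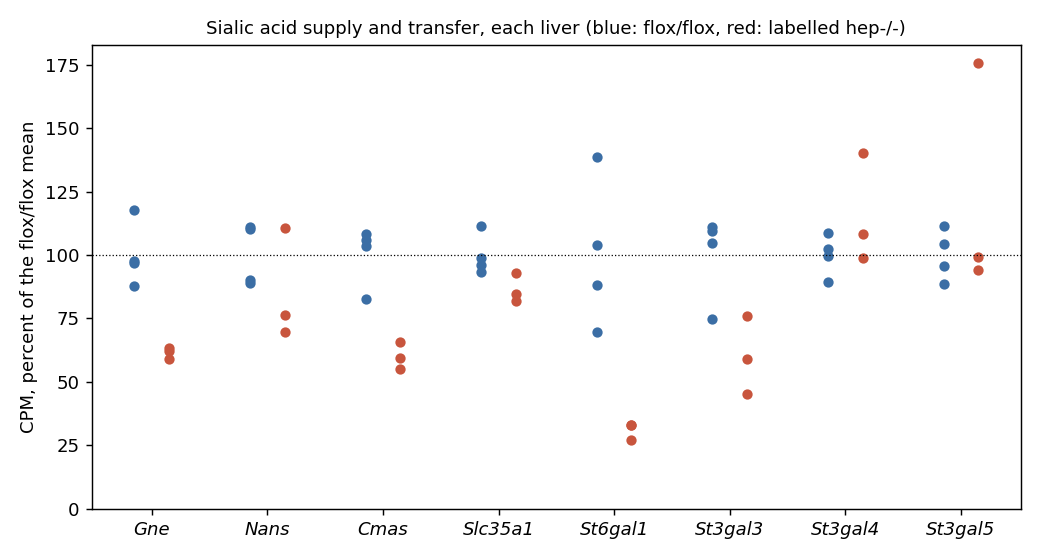
Level of genes of sialic acid supply (Gne, Nans, Cmas and Slc35a1) and transfer (St6gal1, St3gal3, St3gal4 and St3gal5) in each liver (y axis, CPM as percent of the B4galt1 flox/flox mean of the same gene; blue, controls; red, livers labelled B4galt1 hep-/-). The 3 red points of St6gal1 lie at 26.9% to 32.9%, those of Gne at 59.1% to 63.5%, and St3gal5 reaches 175.5% in 1 liver.

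Among the other listed genes, Gfus, which completes the fucose donor, was lower by the test (log2 fold change -0.81 ± 0.21, SE; edgeR adjusted p = 0.0270). C1galt1, which builds the core 1 O-glycan on GalNAc, had -1.09 ± 0.34 (SE; edgeR adjusted p = 0.0471). The COG complex returns Golgi enzymes to their cisternae, and 3 of its 8 subunits were called, beside 15.8% of all tested genes. No test was made of the complex's share. Cog5 was at -1.01 ± 0.20 and Cog7 at -0.76 ± 0.21, against Cog3 at 0.81 ± 0.17 (log2 fold change and SE). The other 5 were not called, with edgeR adjusted p-values from 0.115 to 0.602.

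GlcNAc branching enzymes other than Mgat5 were not called. Of 7 members 6 were tested, 5 had a negative estimate, and their median log2 fold change was -0.49. Mgat1, which starts every hybrid and complex N-glycan, was at 68.5 to 81.5 CPM in the controls and 74.3 to 76.7 CPM in livers labelled B4galt1 hep-/- (log2 fold change 0.02 ± 0.17, SE). Mgat2, which starts the second antenna, had -0.59 ± 0.33 (SE; edgeR adjusted p = 0.232), its lowest level in replicate 2 labelled B4galt1 hep-/- (9.65 CPM) and its highest in control replicate 3 (42.3 CPM). Mgat4b, which adds the beta1,4 branch, was the most abundant of the group at 17.4 FPKM, beside 10.1 FPKM for Mgat1 and 9.36 FPKM for Mgat2 (means over 7 livers), and it had a log2 fold change of -0.27 ± 0.17 (SE). Mgat5 held 1.33%, 1.42%, 4.07% and 0.37% of the summed FPKM of the group in control replicates 1 to 4 and 0.17%, 0.24% and 0.50% in the other livers, so that the shares overlapped and control replicate 3 stood highest. Its counts were 34 in control replicate 4, 12 in replicate 1 labelled B4galt1 hep-/-, 17 in replicate 2 and 34 in replicate 3. Tmem163, which overlaps exons of Mgat5 on the opposite strand, held 1 to 18 counts per library, and the part of shared reads was not tested.

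Mannosidases, which trim the N-glycan before branching, were all tested and none of the 6 was called. Man2a1 and Man1a, the 2 most abundant, had mean levels of 37.0 and 30.5 FPKM over the 7 livers. Man2a1, an alpha-mannosidase II that acts after MGAT1, was at 243, 285, 357 and 288 CPM in the controls and at 213, 151 and 279 CPM in livers labelled B4galt1 hep-/-. The groups met at replicate 3 of the latter, and the log2 fold change was -0.45 ± 0.24 (SE; edgeR adjusted p = 0.213). On the FPKM scale, where the median of all genes was also shifted downwards, it was called lower with pseudocounts of 1 and 0.1 among genes of at least 1 FPKM in 3 libraries (limma adjusted p = 0.0407 and 0.0406). Man1a, an alpha-mannosidase I, had -0.16 ± 0.28 (SE), and Man1b1, which also marks misfolded glycoproteins for disposal, had -0.04 ± 0.17 (SE). Man1c1 was the 1 member of the group with an unadjusted p under 0.05, at -0.88 ± 0.37 (SE; edgeR adjusted p = 0.126), with its highest level in control replicate 3 (21 CPM).

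Fucosyltransferases were low. Of 7 members, all tested, Fut11 had the highest level at 2.59 FPKM and Fut8, which places the core fucose of N-glycans, the next at 1.15 FPKM (means over 7 livers). Fut8 had a log2 fold change of 0.09 ± 0.27 (SE), and Fut11 0.61 ± 0.26 (SE; edgeR adjusted p = 0.127). Fut2, which makes the H antigen in secretory epithelia, was at 0.60, 1.03, 0.47 and 0.40 CPM in the controls and at 1.43, 4.07 and 0.66 CPM in livers labelled B4galt1 hep-/-. The log2 fold change of 1.72 ± 0.61 (SE; edgeR adjusted p = 0.0733, DESeq2 adjusted p = 0.0261) was the largest positive one of the tested members. The groups overlapped, and without replicate 2 of the second group, which had the highest sum of cholangiocyte markers, the estimate was 0.74. Fut4 and Fut7, which make the sialyl Lewis x of leukocytes, had negative estimates of -0.50 and -0.48 that did not pass the test, and the part of the lower macrophage markers in these levels was not tested.

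Enzymes that start and branch O-glycans held no calls. Of 15 Galnt genes 13 were tested, with a median log2 fold change of 0.03. Galnt2 and Galnt1, broadly expressed initiating enzymes, were the most abundant at 11.1 and 9.76 FPKM (means over 7 livers) and pointed in opposite directions, 0.32 ± 0.18 and -0.48 ± 0.22 (log2 fold change and SE), neither of them called. Galnt2 was at 32.4 to 46.0 CPM in the controls and 47.9 to 56.3 CPM in livers labelled B4galt1 hep-/-, and Galnt11 at 11.7 to 15.0 CPM and 15.9 to 18.1 CPM, both without overlap. Galnt10 also did not overlap, at 5.4 to 11.1 CPM and 4.14 to 5.01 CPM (log2 fold change -0.87 ± 0.28, SE; edgeR adjusted p = 0.0534). It was chosen after its values were seen, as a gene that DESeq2 called (adjusted p = 0.0201). Gcnt2, which branches poly-LacNAc, took 71.9% ± 3.54 (SD, n = 4) and 75.2% ± 6.01 (SD, n = 3) of the summed FPKM of the 4 Gcnt genes and had a log2 fold change of 0.08 ± 0.18 (SE). Gcnt4, a core 2 enzyme, was at 4.45 to 7.82 CPM and 4.16 to 4.34 CPM, with no overlap (-0.65 ± 0.27, SE; edgeR adjusted p = 0.118), whereas Gcnt1, the main core 2 enzyme of leukocytes, had 0.40 ± 0.41 (SE).

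Chain-extending enzymes numbered 13, of which 10 were tested and none was called by edgeR. B3gnt2, the main enzyme of poly-LacNAc chains, took 58.1% ± 5.24 (SD, n = 4) and 56.1% ± 13.4 (SD, n = 3) of the summed FPKM of the group, and its log2 fold change was 0.01 ± 0.24 (SE). B3galt1, which builds type 1 chains, and B3gnt8, which extends antennae, had 0.48 ± 0.31 and -0.10 ± 0.40 (log2 fold change and SE). Bckdha, which overlaps exons of B3gnt8 on the opposite strand, held 5051 to 11235 counts per library, beside 37 to 134 for B3gnt8. The part of shared reads was not tested. B3gnt7, an enzyme of keratan sulfate chains, had the estimate farthest below 0 of the group, -1.94 ± 0.79 (SE; edgeR adjusted p = 0.112), at no more than 0.60 CPM in any library, and voom with sample quality weights called it lower.

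In all, the levels of 8 tested members did not overlap between the groups, 6 lower (St6gal1, St6galnac4, St8sia4, Galnt10, Gcnt4 and B3gnt7) and 2 higher (Galnt2 and Galnt11) in livers labelled B4galt1 hep-/-. That was the case for 28.6% of all tested genes, beside 8 of 59 members. St6gal1 alone was both called and without overlap.

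The levels spanned a wide range. Over the 7 livers 8 members had a mean of at least 10 FPKM, 31 of at least 1 FPKM and 39 below 1 FPKM, and 10 members had 0 counts in at least 1 library. Of the 31 members with a mean of at least 1 FPKM, 2 were called (St6gal1 and St3gal3), beside 1106 lower and 970 higher of 10772 genes at that level. Of the 28 tested members below 1 FPKM, 1 was called (Mgat5), beside 83 lower and 245 higher of 4407 genes. A count of 3 corresponded to 0.069 to 0.0987 CPM, and 11 members (B3galt5, B3gnt4, B3gnt6, Galnt14, Galnt16, Gcnt7, Mgat5b, St6galnac1, St8sia2, St8sia3os and St8sia6) did not pass the filter on low counts. Among them St8sia6, named after its values were seen, had 6 to 11 counts in each control and 0 or 1 in each of the other livers.

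**Figure D5:**
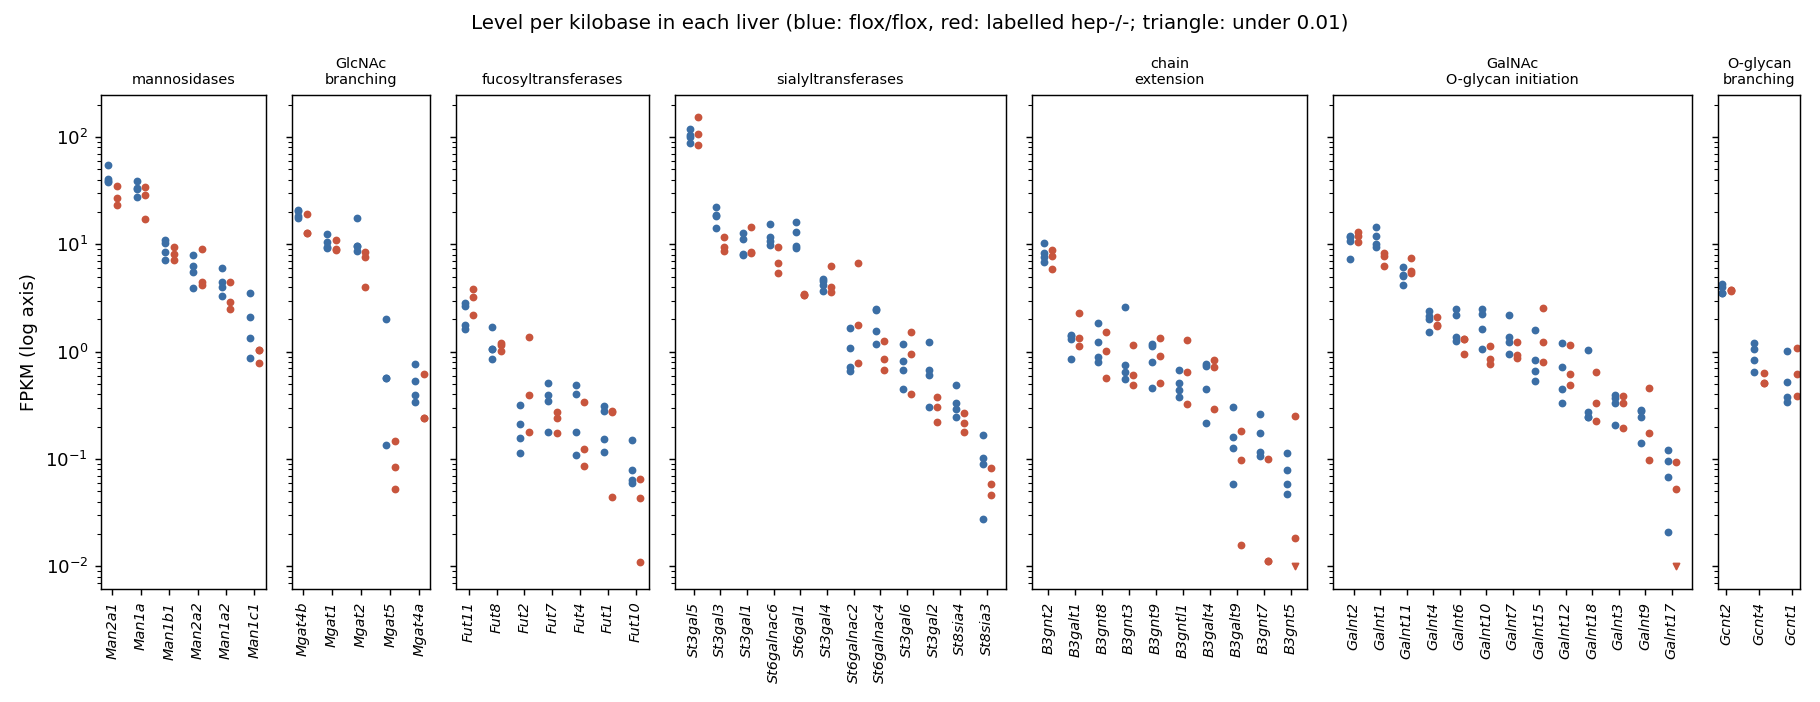
FPKM in each liver (y axis, log scale) of the 56 members with a mean of at least 0.05 FPKM, by role and in order of the mean (blue, B4galt1 flox/flox; red, labelled B4galt1 hep-/-). St3gal5 is highest with a mean of 108 FPKM, followed by Man2a1 with 37.0 FPKM, and the points of St6gal1 do not overlap between the groups.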

How the data were processed

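Liver RNA of 7 mice was sequenced, 1 library per mouse, and groups and replicate numbers were taken from the sample labels. The authors deposited whole-number counts per gene, not normalized, and FPKM values. The submitters' processing notes name fastp, HISAT2, HTSeq, DESeq2, R 3.2.0 and GRCm39, and strandedness is not given in the sources used here. For 13374 genes with at least 10 counts in every library, each FPKM value could be rebuilt from the count, a single length for each gene and the library total to within 1 percent. Because that total includes mitochondrially encoded genes, FPKM was used for levels between genes and TMM-normalized CPM between mice.

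Genes kept by filterByExpr (minimum count 10, minimum total 15), 15179 of 23347, were tested by the quasi-likelihood method of edgeR 4.0.16 (R 4.3.3) with group as the only term. The common biological coefficient of variation was 0.301. Standard errors came from the F statistic. The tests were first run on simulated data. Alternatives were RLE or upper-quartile scaling, DESeq2 1.42.0, leaving out mitochondrially encoded genes, other filters on low counts, limma 3.58.1 on log2 FPKM values with a pseudocount of 1 or 0.1 (at least 1 FPKM in 3 libraries, or with 1 also every gene above 0), voom with weights for sample quality, no fold change threshold, the replicate number as a block, and each library left out. A pseudocount understates the change of low genes. The SDs of shares and CPM are over mice, and the precision of each level is limited by 4 and 3 mice.

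The text names the called members and the 3 of highest mean FPKM in each role group. Others are named where said, and St6galnac6, Fut4 and Fut7 are named outside these rules. Members and lists were chosen with earlier results of these data known. A gene that fits the symbol pattern and a gene of the list of other glycan genes, which is in its counts, are not reported here. Promoter windows are RefSeq sequences (GRCm38.p6), matched by NCBI gene identifier, a build other than that of the counts. Exons of 31 of the 69 members found in GENCODE M21 overlap another gene. Mgat5 and St6gal1 are among them on the opposite strand, and Galnt2, Galnt4 and B3gnt2 on the same strand. Reads there may be shared between genes or left uncounted, which could lower the counts of both genes.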

Additional observations from a re-analysis of the deposited data

Results flagged for a closer look

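In B4galt1 flox/flox replicate 3, 4 members lay far from the other 3 control libraries by Dixon's test, which sets the gap to the nearest library against the range of all 4. B3gnt3 was at 6.23 CPM beside 1.55 to 1.73 CPM, Fut10 at 1.5 CPM beside 0.68 to 0.74 CPM, and Galnt18 at 2.46 CPM beside 0.55 to 0.76 CPM. St3gal3 was at 39.4 CPM beside 55.3 to 58.6 CPM. These were 4 of 60 genes examined (the tested members and B4galt1), a share near the 6.5% of all tested genes with such a library, and chance alone flags about 1 in 20 such groups. The same replicate had the highest sums of macrophage, endothelial and stellate cell markers, whose part in these 4 values was not tested.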

How the results depend on the processing

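St6gal1 was called lower under every alternative run. The counts that moved by more than 1.5 times were these, and the cause was not tested. Members called lower numbered 6 with DESeq2, 5 with a filter of at least 1 count in any library and 5 on log2(FPKM + 0.1), and those called higher numbered 2 with DESeq2 and 2 with the filter of at least 1 count. On log2(FPKM + 1) for all genes, 1330 genes were called in all and 3 of the other glycan genes. With 1 library left out, 885 to 2396 genes were called in all, 1 to 4 members lower, 0 to 2 members higher (Galnt15 without B4galt1 flox/flox replicate 3, Fut2 and St6galnac2 without replicate 3 labelled B4galt1 hep-/-) and 1 to 9 other glycan genes. The lowest counts, 885 genes, 1 member and 1 other glycan gene, came without B4galt1 flox/flox replicate 2, and only 1 member, St6gal1, stayed lower without replicate 1 or replicate 2 labelled B4galt1 hep-/-. Where that left 2 or 3 mice in a group, the spread was pooled over both groups.

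FPKM values are scaled by totals that hold the mitochondrially encoded genes, and on that scale the median of all genes shifted by -0.12 to -0.13 on the log2 scale. Of all calls, 49.5% were lower in the main test and 75.5% to 81.8% on the FPKM scale. B4galt1 passed the test at -0.67 with log2(FPKM + 1) and -0.73 with log2(FPKM + 0.1), but not at -0.67 with log2(FPKM + 1) for all genes (limma adjusted p = 0.108). Of the members, Man2a1 passed in the first 2 of these fits, at -0.59 and -0.61, St6galnac6 in both, and Galnt1 in the second, at -0.61. B4galt1 ranged from -0.96 to -0.30 with 1 library left out. Voom called B3gnt7 lower. Mgat5 was not called with voom (limma adjusted p = 0.0718) or on log2(FPKM + 1) for all genes (limma adjusted p = 0.271).

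Single members whose estimates changed sign were not called in any of these fits. On the FPKM scale B3gnt2 was at -0.13 and -0.14, Fut8 at -0.011 and -0.0052, Mgat1 at -0.089 and -0.10, and Gcnt2 at -0.032 and -0.039 with pseudocounts of 1 and 0.1. B3gnt2 was at -0.0078 with the filter of at least 1 count, B3gnt8 at 0.028 with voom, and Man1b1 at 1e-04 with upper-quartile normalization and 0.010 with voom. With 1 library left out the ranges that crossed 0 were -0.19 to 0.23 for B3gnt2, -0.37 to 0.14 for B3gnt8, -0.014 to 0.30 for Fut8, -0.017 to 0.073 for Mgat1, -0.44 to 0.13 for Man1a, -0.11 to 0.031 for Man1b1, -0.059 to 0.44 for St3gal5 and -0.18 to 0.42 for St3gal1.

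The replicate numbers did not pair the mice. The correlations of same-numbered libraries' deviations from their group means were -0.34, -0.03 and 0.08. With the replicate number as a block 1267 genes were called, 2 members lower (St6gal1 and Mgat5) and 1 other glycan gene, and St3gal3 was at -0.70 (edgeR adjusted p = 0.154).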
